A study of Homo sapiens with 8 samples.

Results

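TP53BP1, BRCA2 and GADD45A, genes of DNA break repair and of the damage response, were examined for differences in N6-methyladenosine (m6A), a methyl mark on adenosines in RNA, in HL-60 cells treated with decitabine. Every feature carrying one of these gene names was taken, which gave 3 features in 3 genes, out of 4626 features under 3114 gene names in the authors' deposited table of the comparison. HL-60 is an established human promyelocytic leukaemia line, labelled wild type in all groups. In one group decitabine was added at 100 nM at the start, after 24 hours and again after 48 hours, and the other group was given DMSO, the vehicle, and the RNA of both was taken at 72 hours. Each treatment has 2 m6A immunoprecipitates and 2 input libraries, 8 libraries in all, from cultures described only as duplicates.

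Decitabine is a deoxycytidine analogue that is built into DNA during replication and there traps DNA methyltransferases, above all DNMT1, as protein adducts. Removal of such adducts, and replication forks that meet them, can leave breaks in DNA. TP53BP1 encodes 53BP1, which binds modified histones beside a break and protects the ends from resection, favouring end joining. BRCA2 is a core factor of homologous recombination, which repairs a resected break by copying an intact sister strand. GADD45A is a small stress protein induced by damage, through p53 and by other routes, that binds the kinase MAP3K4 and the replication clamp PCNA. HL-60 cells are known to lack functional p53. On many messenger RNAs m6A is densest near the stop codon and in the last exon, where reader proteins can speed decay of the transcript.

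The authors' deposited table gives each feature, a bin of the transcript usually 50 nt long, a log ratio and a p-value, and no value per library. No error or replicate spread can therefore be attached to any ratio below, the depth behind it is unknown, and the p-values are the authors' own, not marked as adjusted. The log ratio was read as a natural log, and a fold is the larger arm over the smaller. The orientation is not stated. Positive values are likely those higher with decitabine than with DMSO, judged only from the name of the deposited comparison. That name does not say which arm is the numerator, so every direction given below depends on this reading. The part that input levels play in a ratio was not tested, and in bulk RNA fewer cells with a transcript and less of it per cell cannot be told apart. The table held only features with a p-value up to 0.00455 and a fold of at least 1.65. It holds differences in m6A and no expression level, so the levels of HL-60 marker genes could not be checked from it.

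The 3 genes did not share a direction. TP53BP1 and BRCA2 carried negative features, likely lower with decitabine, and GADD45A a positive one, likely higher. The TP53BP1 ratio was 3.71 times as large as the BRCA2 ratio in the authors' deposited table. The GADD45A ratio, of opposite sign, was of nearly the same size as that of BRCA2 there (1.01 times). By gene, 58.9% of the names in the table had a positive leading feature (that of the lowest p-value) and 41.1% a negative one, so neither direction is unusual among listed genes.

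**Figure D1:**
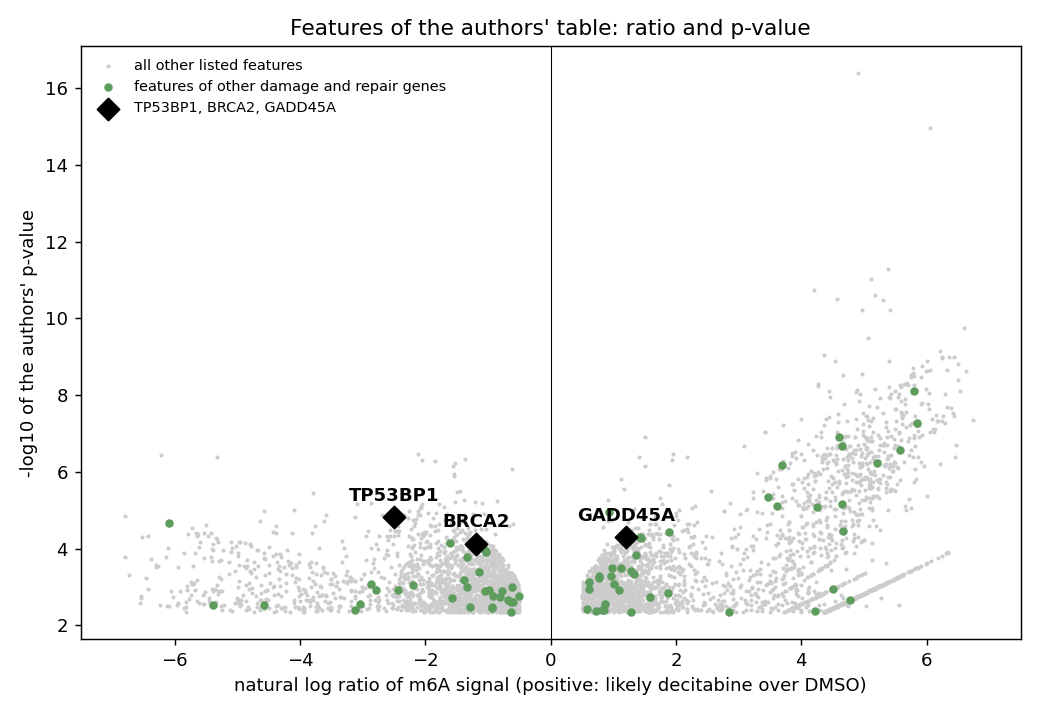
Natural log ratio (horizontal axis) against -log10 of the authors' p-value (vertical axis) for the features of the authors' deposited table, grey for other features, green for other damage and repair genes, black diamonds for TP53BP1, BRCA2 and GADD45A; 1 feature with a natural log ratio above 10 is off the scale. The 3 genes lie at -2.50, -1.19 and 1.20, all of them outside the group of extreme positive ratios on the right.

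Of the 3 genes, TP53BP1 had the largest ratio and the lowest p-value. Its feature in the authors' deposited table (ENSG00000067369.14, hg38 chromosome 15, 43428153 to 43432227, minus strand) had a natural log ratio of -2.50, a negative 12.2-fold (p = 1.5e-05). It covers 50 nt of RNA in 2 blocks, 43428153 to 43428168 (16 nt) and 43432194 to 43432227 (34 nt), separated by 4025 nt of genome. The bin thus joins sequence from both sides of a gap in the genomic alignment of the transcript, as happens at a splice junction. Features of more than 1 block were a minority of the authors' deposited table, 194 in all, of which 113 were positive and 81 negative, and 23 of the negative ones had a larger fold than TP53BP1. Among all 2022 negative features, 416 (20.6%) were larger. With stepped ratios set aside (multiples of 0.5, the form a ratio of whole numbers takes when the smaller arm is nearly empty), 168 of 1758 negative features (9.56%) exceeded it in the authors' deposited table. By p-value, 12.8% of all listed features were smaller.

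The TP53BP1 feature lies well inside the gene. Its centre stands at 74.8% of the RefSeq gene span (GRCh38.p14, 107580 nt) from the 5' end, and 25092 nt of genome separate it from the 3' end of the span. One other gene, TUBGCP4, which encodes a subunit of the gamma-tubulin complexes that nucleate microtubules, overlaps the TP53BP1 span, but not at the feature. TUBGCP4 held a positive 3.28-fold feature (p = 2.2e-03) in the authors' deposited table, 18781 nt from the TP53BP1 feature and opposite to it in sign.

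BRCA2 had a moderate ratio. Its feature in the authors' deposited table (ENSG00000139618.15, hg38 chromosome 13, 32338861 to 32338910, plus strand) had a natural log ratio of -1.19, a negative 3.27-fold (p = 7.4e-05). It stood close to the middle of the negative features: 59.2% of them (1198) were larger, or 53.4% with stepped ratios set aside, in the authors' deposited table. Its p-value was nearer the low end, since 19.2% of listed features had a smaller one. The bin lies in the 5' part of the gene, at 27.9% of a span of 85192 nt and 61358 nt of genome from the 3' end. The median over the 4240 features inside the span of their gene was 81.9% of the span, introns counted. How widely these positions spread was not measured. Among the listed genes of homologous recombination they ran from 14.9% (PALB2) to 97.1% (BRCC3). The RefSeq genes ZAR1L and IFIT1P1 overlap the BRCA2 span, neither of them at the feature and neither with a listed feature there. The nearest feature of another gene belonged to FRY, 43576 nt away, at a negative 9-fold stepped ratio (p = 2.9e-03) in the authors' deposited table.

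GADD45A was the gene of the 3 with a positive ratio. Its feature in the authors' deposited table (ENSG00000116717.13, hg38 chromosome 1, 67687940 to 67687989, plus strand) had a natural log ratio of 1.20, a positive 3.32-fold (p = 5.0e-05). Among all 2604 positive features 72.0% (1875) were larger, but with stepped ratios set aside GADD45A stood in the middle, with 727 of 1453 larger, in the authors' deposited table. By p-value, 17.0% of listed features were smaller. The bin ends 345 nt from the 3' end of a span of only 3134 nt, at 88.2% of its length. Of the features inside the span of their gene, 365 (8.61%) lay within 500 nt of the 3' end, and 58.6% of those were positive. No other RefSeq gene overlaps the GADD45A span, and the nearest feature of another gene, in IL23R, lay 429048 nt away.

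None of the 3 ratios was a stepped one, which is the more common case, since 1415 of all 4626 features (30.6%) were stepped. As ratios of whole numbers in lowest terms, to a relative tolerance of 1e-10, they equal 960 over 79 for TP53BP1, 1283 over 392 for BRCA2 and 2342 over 705 for GADD45A in the authors' deposited table. Of all listed ratios 83.2% (3849) equal such a fraction with a smaller number up to 1000 when the base is e, and 1 does when it is 2. The median of the smaller number was 61 (quartiles 2 and 182), and it was above that of TP53BP1 in 43.8%, above that of BRCA2 in 10.9% and above that of GADD45A in 3.12% of these features. The ratios of BRCA2 and GADD45A therefore stood far from those whose smaller number is 1 or 2. Only these are stepped, so setting stepped ratios aside does not remove every ratio with a small arm. The large folds of WDR48, HIPK2 and BCCIP given below are not stepped, nor are the 20.8-fold of BLM and the 16.2-fold of XRCC2. They met no fraction within the tolerance used, so the size of their smaller arm was not read from them. Whether the whole numbers are read totals or values rounded after a correction was not tested.

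Each of the 3 genes had 1 listed feature, as did 2168 of the 3114 gene names (69.6%), and of these single features 43.2% were negative. No other bin of the same transcript was therefore at hand to set beside it. The genes with 1 feature and the nearest ratio of the same sign were taken for each, over this 1 comparison, from 935 negative and 1231 positive candidates. For TP53BP1 these were SLK, a protein kinase (negative 12.1-fold, p = 4.6e-05), and PPP1R15A (negative 12.1-fold, p = 1.9e-05), within 0.0015 and 0.0078 of it on the natural log scale of the authors' deposited table. For BRCA2 they were RING1, a Polycomb ubiquitin ligase (negative 3.27-fold, p = 6.3e-04), and C19orf12 (negative 3.28-fold, p = 2.2e-03) in the authors' deposited table. For GADD45A they were the histone demethylase KDM6B (positive 3.32-fold, p = 1.7e-03) and FAM214A (positive 3.33-fold, p = 9.4e-05) in the authors' deposited table.

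The 3 genes and genes that work with them were taken from 7 lists of 184 symbols in all. Of these, 48 genes were listed, TP53BP1, BRCA2 and GADD45A included. The leading feature was positive in 33 of them and negative in 15, so TP53BP1 and BRCA2, themselves counted in the 15, were on the less common side. The positive share was 68.8%, against 58.9% over all gene names. Stepped ratios made up 14 of the 48 leading features, against 1131 of 3114 over all gene names. Without stepped ratios 22 genes were positive and 16 negative (45.3% positive and 54.7% negative over all names), a positive share of 57.9%. With the largest ratio per gene in place of the smallest p-value 28 were positive and 20 negative, and the positive share (58.3%) was then no higher than that over all names (59.3%). The median fold of the 48 leading features was 3.80, against 6.70 over all gene names in the authors' deposited table. Both medians include the stepped ratios.

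**Figure D2:**
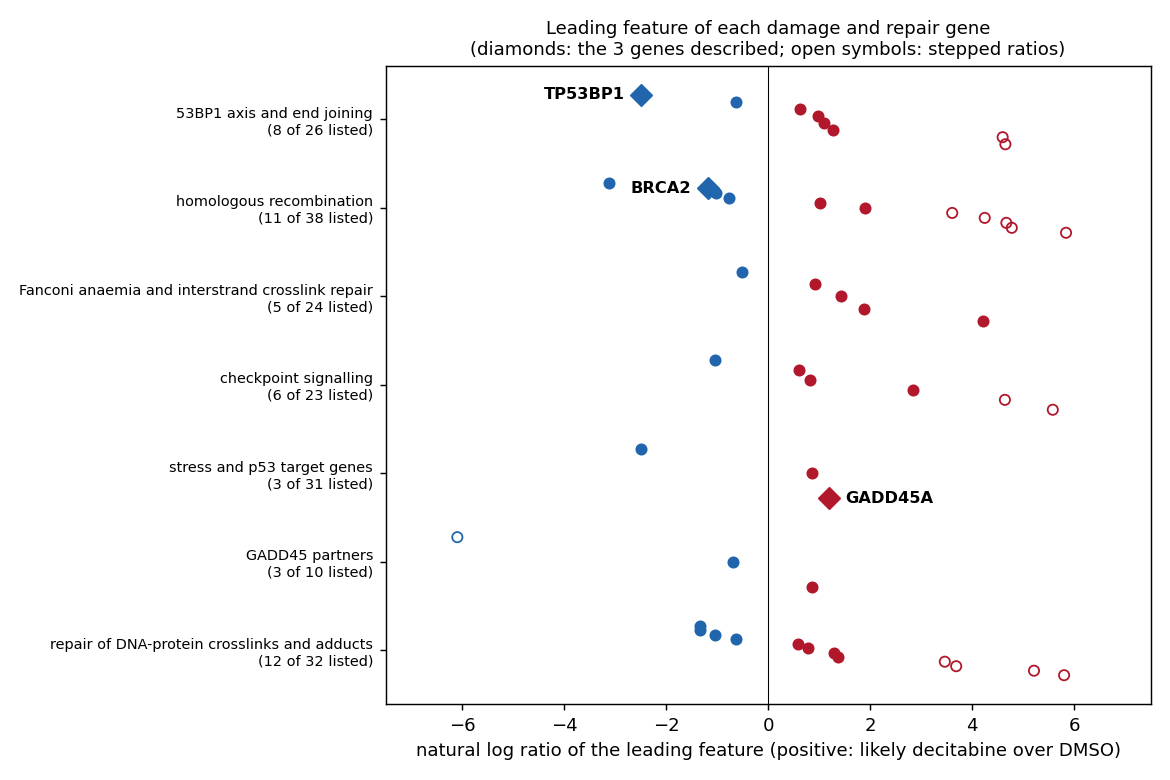
Natural log ratio of the leading feature (horizontal axis) of each listed gene, by gene list (rows), red for positive and blue for negative; diamonds are TP53BP1, BRCA2 and GADD45A, and open symbols are stepped ratios. TP53BP1 at -2.50 has the most negative leading feature of the 8 genes in its list. The leading features above 100-fold in the upper 4 lists are all positive and stepped, while ING1, among the GADD45 partners, is negative and stepped at 444-fold.

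The listed partners of 53BP1 held features of both signs. Of 26 symbols of the 53BP1 axis and of end joining 8 were listed, 6 positive and 2 negative, with a median fold of 3.30, and the 2 negative genes were TP53BP1 itself and PRKDC. Over all names 58.9% were positive. The count for this list was 5 and 3 without stepped ratios (45.3% positive over all names) and 4 and 4 with the largest ratio per gene (59.3% positive over all names). RNF168, the ubiquitin ligase whose histone mark recruits 53BP1, was led by a positive 2.67-fold feature (p = 3.1e-04) in the authors' deposited table and also held a negative 11.4-fold one. MDC1, the adaptor that brings the ubiquitin ligases to the break, had a positive 2.99-fold feature (p = 1.2e-03) in the authors' deposited table.

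The effectors downstream of 53BP1 carried features of both signs. RIF1, which 53BP1 recruits to block resection, had 3 features in the authors' deposited table, at a positive 105-fold (stepped, p = 6.9e-06), a positive 3.06-fold and a negative 2.25-fold. PAXIP1, also called PTIP, which binds phosphorylated 53BP1, was placed by the authors' deposited table at a positive 99.5-fold (stepped, p = 1.2e-07), with a second feature at a negative 8.99-fold. SHLD2, a subunit of the shieldin complex that covers the ends, had 2 features 998 nt apart in the authors' deposited table, a positive one of 3.60-fold (p = 3.8e-04) and a negative one of 3.96-fold. For LIG4, the ligase of end joining, the authors' deposited table gave 1.85-fold (p = 1.1e-03) and 4.87-fold, both positive. PRKDC, the catalytic subunit of the DNA-dependent protein kinase, is named after its value was seen, a negative 1.89-fold (p = 4.5e-03) in the authors' deposited table.

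Genes of homologous recombination were listed with either sign, and BRCA2 was among the 4 negative ones. Of 38 symbols 11 were listed, 7 positive (63.6%, near the 58.9% over all names) and 4 negative, and 5 of the 7 positive leading features were stepped. Without stepped ratios 2 genes of this list were positive and 5 negative (45.3% positive over all names), so the larger positive count rested on ratios of that form. PALB2, which brings BRCA2 to the break, stood in the authors' deposited table at a positive 107-fold (stepped, p = 3.5e-05), with a negative feature of 4.86-fold 5441 nt away. BARD1, the partner of BRCA1, was led by a negative 2.80-fold feature (p = 1.2e-04) in the authors' deposited table, with a negative 2.54-fold and a positive 2.61-fold feature 399 nt apart elsewhere in the gene. BRCC3, a deubiquitinase of the BRCA1-A complex, had 3 features in the authors' deposited table, positive at 6.67-fold (p = 3.6e-05) and 2.17-fold and negative at 2.54-fold.

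The remaining leading genes of this list were stepped and positive. They were the exonuclease EXO1, which resects ends, at 345-fold (p = 5.2e-08), the recombination factor XRCC3 at 70-fold (p = 8.2e-06) and MMS22L, which acts with TONSL at stalled forks, at 37-fold (p = 7.9e-06) in the authors' deposited table. The other 4 genes are named after their values were seen. BRCA1 had a positive 119-fold stepped ratio with a p-value of 2.2e-03 in the authors' deposited table. BCCIP, which binds BRCA2, stood at a negative 22.8-fold (p = 3.9e-03), and the helicase BLM at a negative 2.16-fold (p = 1.3e-03) and a negative 20.8-fold, according to the authors' deposited table. XRCC2, another recombination factor, had 3 features in the authors' deposited table, the leading one positive at 2.76-fold (p = 8.1e-04) and the others negative at 16.2-fold and 3.59-fold.

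**Figure D3:**
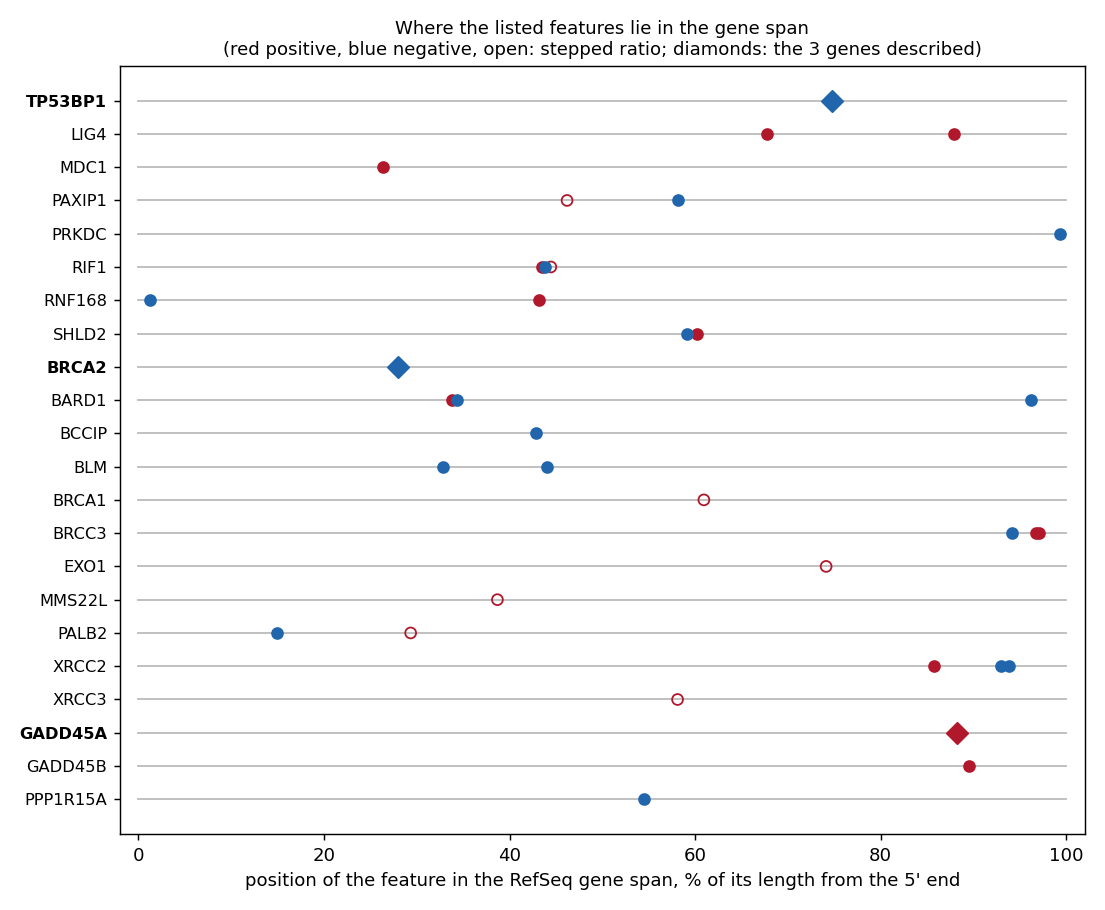
Centre of each listed feature as a percentage of the RefSeq gene span from the 5' end (horizontal axis) for the 22 listed genes of the 53BP1, homologous recombination and stress lists (rows), red for positive, blue for negative, open for stepped, diamonds for TP53BP1, BRCA2 and GADD45A. The 3 genes have 1 feature each, at 74.8%, 27.9% and 88.2%, while several partners hold features of both signs.

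GADD45A was 1 of 3 listed genes among 31 symbols of stress and p53 target genes (9.68%, against 26.1% of the symbols of all 7 lists). Of the 3, 2 were positive, against 58.9% positive over all names. Its paralogue GADD45B had a positive 2.35-fold feature (p = 3.9e-03) in the authors' deposited table, also close to the 3' end (197 nt, at 89.6% of the span). PPP1R15A, known as GADD34, a phosphatase subunit that restores translation after stress and is unrelated in sequence to GADD45A, had a negative 12.1-fold feature (p = 1.9e-05) in the authors' deposited table. Of 10 symbols of GADD45 partners 3 were listed, 1 positive and 2 negative, against 58.9% positive over all names, too few genes to set apart from that share. MAP3K4, the kinase that GADD45 proteins activate, had a negative 1.98-fold feature (p = 2.2e-03) in the authors' deposited table. ING1, a chromatin reader, stood at a negative 444-fold stepped ratio (p = 2.2e-05) and both features of the repair nuclease ERCC5 were positive, at 2.38-fold (p = 2.7e-03) and 2.05-fold, in the authors' deposited table.

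Of 23 symbols of checkpoint signalling 6 were listed, 5 positive and 1 negative, against 58.9% positive over all names. Without stepped ratios 3 were positive and 1 negative (45.3% positive over all names). At p-values up to 0.001 3 were positive and 0 negative (62.4% positive over all names). ATRIP, the partner of the kinase ATR, had positive stepped ratios of 104-fold (p = 2.1e-07) and 90.0-fold, and CLSPN, the adaptor claspin, one of 266-fold (p = 2.7e-07), in the authors' deposited table. RAD9A, of the checkpoint clamp, stood at a positive 1.84-fold (p = 7.6e-04), the phosphatase CDC25A at a positive 2.26-fold (p = 3.9e-03) and the kinase HIPK2 at a positive 17.2-fold (p = 4.4e-03) in the authors' deposited table. MDM2, the ubiquitin ligase of p53, was the negative gene at 2.85-fold (p = 1.3e-03) in the authors' deposited table.

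Of 24 symbols of the Fanconi anaemia list, for the repair of crosslinks between DNA strands, 5 were listed, 4 positive and 1 negative, against 58.9% positive over all names. With the largest ratio per gene 3 were positive and 2 negative (59.3% positive over all names). At p-values up to 0.001 2 were positive and 0 negative (62.4% positive over all names). USP1, which removes ubiquitin from FANCD2, was led by a positive 2.52-fold feature (p = 1.1e-05) in the authors' deposited table. Its other features were negative, at 97.5-fold (stepped), only 99 nt from the leading one, and at 17.6-fold. WDR48, the cofactor of USP1, stood at a positive 67.7-fold (p = 4.2e-03) in the authors' deposited table. The nuclease scaffold SLX4 was led by a positive 4.14-fold feature (p = 5.0e-05), CENPX, a histone-fold partner of FANCM, stood at a positive 6.52-fold (p = 1.4e-03) and FANCF at a negative 1.66-fold (p = 1.7e-03) in the authors' deposited table. Further features of SLX4 in the authors' deposited table were negative, at 2.68-fold and 1.83-fold.

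Of 32 symbols for the repair of DNA-protein crosslinks and adducts 12 were listed, 8 positive (66.7%) and 4 negative, against 58.9% positive over all names. Without stepped ratios 5 were positive and 4 negative, against 45.3% positive over all names. RNF4 and TOPORS, ubiquitin ligases that act on SUMO-modified proteins such as trapped DNMT1, differed in sign, with RNF4 at a negative 2.84-fold (p = 1.1e-04) and TOPORS at a positive 32-fold stepped ratio (p = 4.5e-06) in the authors' deposited table. The SUMO ligases PIAS2 (positive 332-fold, p = 7.7e-09) and ZNF451 (positive 184-fold, p = 6.0e-07) were led by stepped ratios in the authors' deposited table. The authors' deposited table listed 3 further features of ZNF451, positive at 4.21-fold and negative at 4.94-fold and 220-fold (stepped). NPLOC4, a cofactor of the unfoldase VCP, had a positive 3.90-fold (p = 1.5e-04) and a negative 3.12-fold feature only 100 nt apart in the authors' deposited table. Another 6 genes, named after their values were seen, were led by negative features of 3.78-fold in the protease FAM111A, 3.81-fold in USP7 and 1.88-fold in the protease SPRTN, and by positive ones of 2.17-fold in LIG3, 3.61-fold in TDP1 and 1.79-fold in VCP in the authors' deposited table. FAM111A held 4 features there, the others being negative at 1.84-fold and 2.51-fold and, 99 nt from the last of these in the authors' deposited table, positive at 3.78-fold (p = 4.7e-04).

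Where a damage or repair gene had several features, their signs often differed. Of 17 such genes in the 7 lists 13 held both signs (76.5%), against 552 of 946 genes (58.4%) in the whole table. Among 27 pairs of neighbouring features in these genes 12 had the same sign (44.4%) and 15 the opposite, against 53.3% of 1502 pairs with the same sign in the whole table. Among the 11 pairs less than 500 nt apart 5 had the same sign and 6 the opposite, against 53.4% of 663 pairs with the same sign in the whole table. For TP53BP1, BRCA2 and GADD45A the sign given is that of 1 bin each.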

How the data were processed

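m6A immunoprecipitates (2 µg of fragmented RNA, 5 µg of antibody) and inputs were read as 50-base single reads, per the labels' protocols. The submitters' processing notes name STAR 2.7.3a and hg38. How features were scored and corrected for input and library size is not stated there. The authors deposited, per the file headers, a log ratio, read here as a natural log (ln), and a p-value per feature, as a list already past a threshold. No value per library was used, so depth is unknown and no test was run. Positions are given as 1-based, both ends counted. Gene spans came from RefSeq, where all 184 list symbols matched. Exons were not annotated and no sequence was read. The members and lists were chosen with earlier results of these data known. Named are every feature of the 3 genes, up to 6 other genes per list by p-value, the 2 nearest genes by ratio, and features inside a member's span. A gene that this rule would name is not reported here, though list counts include it. The nearest features outside those spans (FRY, IL23R) were added. Alternatives were the log base, the feature that represents a gene, stepped ratios, a p-value threshold and assignment by position. Python 3.11.15, pandas 2.3.3, numpy 2.4.6 and matplotlib 3.10.9 were used.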

Additional observations from a re-analysis of the deposited data

How the results depend on the processing

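Read as base 2 in place of the natural log, the folds would be 5.65 for TP53BP1, 2.27 for BRCA2 and 2.30 for GADD45A, with the same signs. Each of the 3 genes has 1 feature, so the choice of the leading feature cannot change it. Over the 7 lists together, 22 genes were positive and 8 negative at p-values up to 0.001, where fewer features are counted. The positive share there was 73.3%, against 62.4% over all names at the same threshold. By position inside a RefSeq span on the same strand (154 symbols with a strand) 28 were positive and 13 negative, and no share over all names was made for this setting. Of 56 counts of single lists under the alternatives, 39 stayed within 1.5 times and 17 did not, most of them counts of a few genes. No paired analysis was possible because the deposited table holds no value per library, and for the same reason no replicate was left out and no count fit was run.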
